A study of Mus musculus with 4 samples.

Results

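The genes described here are 10 regulators of endoderm and heart formation, and the values are the CTCF and RAD21 peaks around them in mouse gastruloids. The genes are Sox17, Foxa1, Foxa2, Gata4, Gata6, Shh, Hand1, Hand2, Nkx2-5 and Tbx5, 10 of 21327 protein-coding genes in the GRCm38 annotation used. Peaks with a summit within 50 kb of a gene body were taken, and for Shh up to 1 Mb on the side of Lmbr1. Overlapping CTCF peaks of the 3 CTCF lists formed 1 site, which gave 62 CTCF sites of 56026 in the genome. The rule names the genes and uses no measured value.

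Gastruloids are aggregates of mouse embryonic stem cells that lay down a body axis in culture, and these were pooled and fixed 96 h after aggregation. Chromatin was mapped by ChIPmentation, a chromatin immunoprecipitation whose library is made by Tn5 transposase directly on the antibody beads. CTCF was mapped in 2 HoxB mutants, called DelCBS7-10 and InsCBS5-10 here, and in wild-type gastruloids. RAD21 was mapped in InsCBS5-10. In both mutants 1 HoxB copy is deleted (Del), and the other copy carries Del(i9-13), which removes the i9-13 interval, together with Ins(CBS5-10), which adds CTCF binding sites. DelCBS7-10 carries a further allele, Del(CBS7-10), which takes sites 7 to 10 of that insertion away again. All edits lie at HoxB on chromosome 11, where Hand1 also lies. Each genotype had 1 library per antibody, so no genotype could be tested and no p-value is given. A further RAD21 list had no sample in the labels used here. Its peak names read wild type and 96 h, and it is called the wild-type RAD21 list below, with the authors' values and no n. The number of stem cell clones was not stated, and peak lists hold no expression values with which to check the tissue.

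CTCF is a zinc finger protein that binds a long DNA motif and halts the cohesin ring as it extrudes chromatin loops. RAD21 is the subunit that closes this ring, so CTCF and RAD21 peaks often coincide at loop anchors. Sox17, Foxa1 and Foxa2 are transcription factors of the definitive endoderm, Gata4 and Gata6 act in both endoderm and heart, Hand1, Hand2, Nkx2-5 and Tbx5 act in the cardiac mesoderm, and Shh is a signal secreted by the notochord, floor plate and gut endoderm. The limb enhancer of Shh, the ZRS, lies in an intron of Lmbr1, far from Shh itself.

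Every peak carries the authors' fold enrichment, which is the signal at its summit over a local background, and a −log10 q. Whether that background came from the same library or from a control was not given. Each list was called separately, with 36589 peaks in DelCBS7-10, 34499 in InsCBS5-10 and 47931 in wild type for CTCF. RAD21 had 19610 peaks in InsCBS5-10 and 59484 in the wild-type RAD21 list. The median CTCF fold enrichment was 5.30 in DelCBS7-10, 5.56 in InsCBS5-10 and 5.60 in wild type, but the level that 90% of peaks did not reach was 8.26, 8.86 and 11.4 in the same order. Fold enrichment was therefore read by its percentile within its own list, where 100 is the strongest peak, and differences in fold between lists are not read as changes in binding. Read depth is unknown, and the lack of a call at a site does not show that CTCF was absent. In pooled material, binding in fewer cells and weaker binding per cell cannot be told apart.

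All 10 genes had at least 1 CTCF peak within 50 kb in each CTCF list, where 85.4% of protein-coding genes had one in DelCBS7-10, 84.3% in InsCBS5-10 and 89.6% in wild type. Within 5 kb or inside the gene body, 7 of the 10 had a CTCF peak in each list, against 57.1% of protein-coding genes in DelCBS7-10, 54.6% in InsCBS5-10 and 63.3% in wild type. The same 7 genes were called in all 3 lists, and the share of protein-coding genes called near in all 3 was 51.0%. The 3 genes without a near peak were Hand1, Hand2 and Nkx2-5, all of the heart group, whose other gene Tbx5 had one. The near window grows with the gene body, from 3.44 kb at Hand1 to 88.7 kb at Tbx5, and this was not tested. Their nearest CTCF peak in wild type lay 8.57 kb from Hand1, 6.54 kb from Hand2 and 34.5 kb from Nkx2-5. The near call differed between the CTCF lists at none of the 10 genes, against 15.4% of protein-coding genes, but this rests on the version of chromosome 11 read. On the other version Hand1 had a near peak in DelCBS7-10 alone, which makes 8 genes with a near peak in any list. With 10 genes, counts as close to the background as these do not set the group apart.

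**Figure D1:**
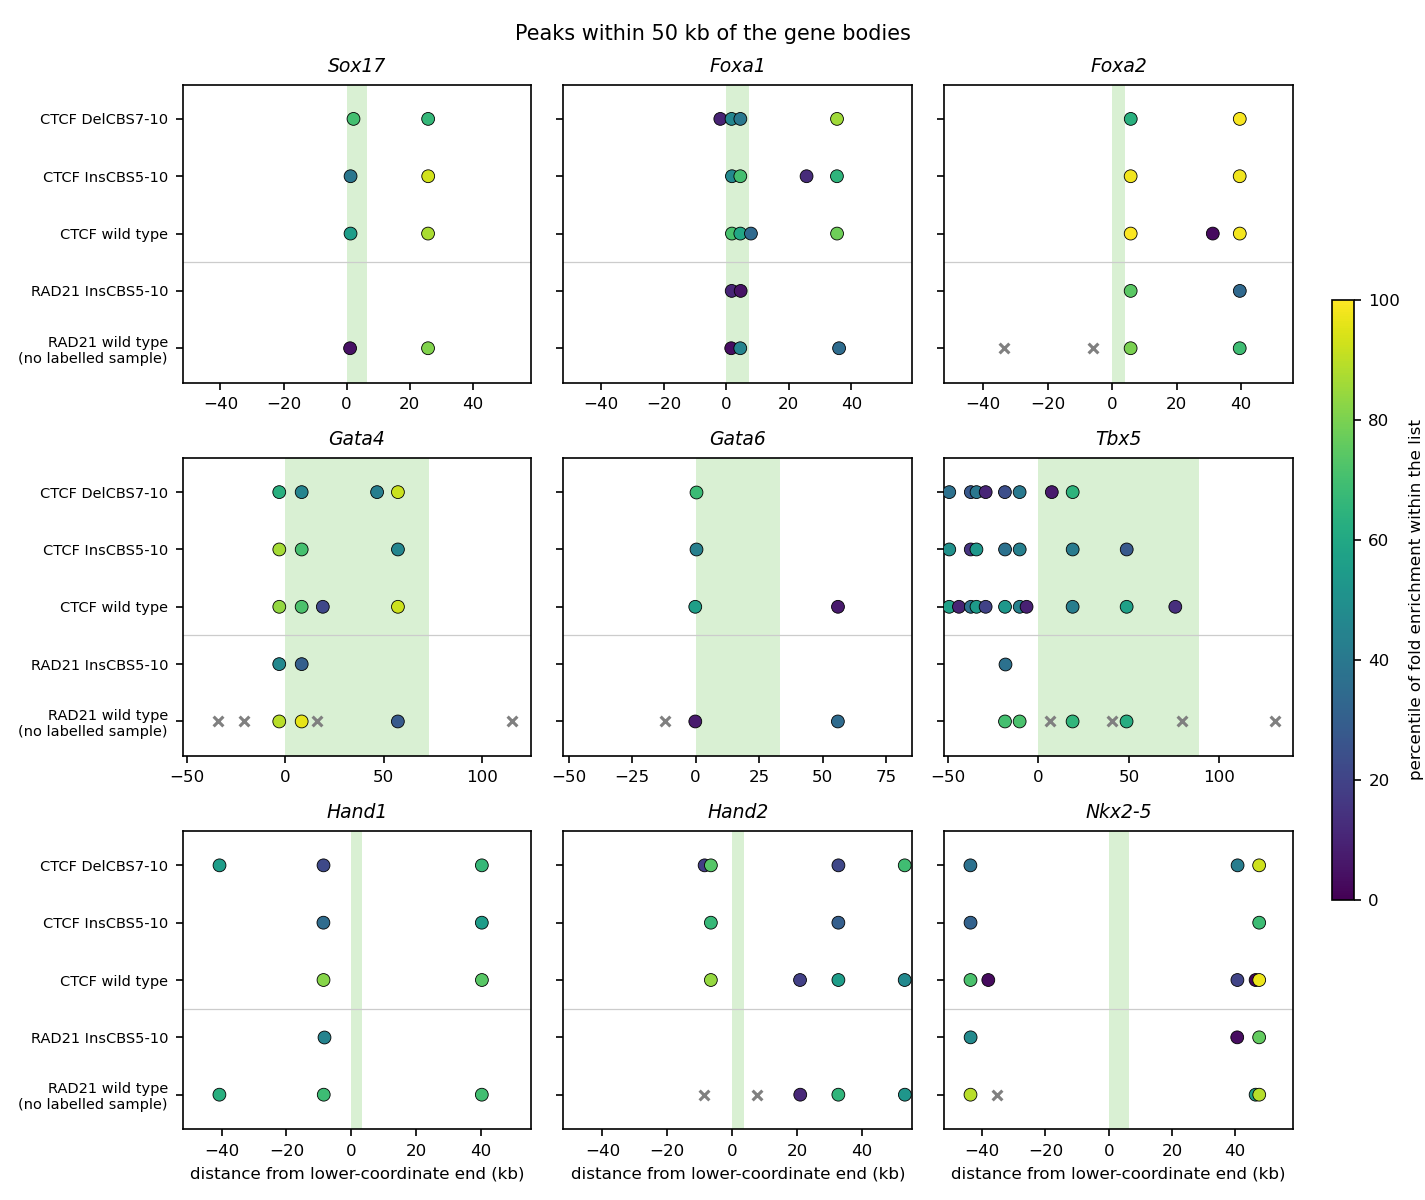
Peaks around 9 of the genes (all but Shh), 1 panel a gene, by distance in kb from the gene's lower-coordinate end (horizontal axis, gene body shaded green) and by list (rows), with circles for peaks at CTCF sites coloured by the percentile of fold enrichment within the list and grey crosses for RAD21 peaks without a CTCF site. Each gene has circles in all 3 CTCF rows, and Hand1, Hand2 and Nkx2-5 have none within 5 kb of the shaded body in those rows.

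Sox17, an HMG-box factor needed for endoderm formation (chr1:4490928-4497426), had 2 CTCF sites and both were called in all 3 CTCF lists. The site inside the gene, at chr1:4492037-4493409, had fold enrichments of 6.46 in DelCBS7-10, 4.94 in InsCBS5-10 and 6.13 in wild type. It was a middling peak in InsCBS5-10 and wild type, at percentiles 39.3 and 55.1, and stood higher in DelCBS7-10 at 70.1. The second site, 19.4 kb beyond the higher-coordinate end, had fold enrichments of 6.23 in DelCBS7-10, 9.43 in InsCBS5-10 and 10.8 in wild type, at percentiles 66.5, 93.1 and 87.4. Neither site had a RAD21 peak in InsCBS5-10, and both had one in the wild-type RAD21 list, with folds of 2.55 inside the gene and 7.19 at the outer site.

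The site inside Sox17 was also out of the ordinary in shape. Its summit lay at position 4493099 in DelCBS7-10, at 4492168 in InsCBS5-10 and at 4492160 in wild type, so the summits spanned 939 bp. Among the 27474 sites of the genome called in all 3 lists, 99.9% had a smaller span. The DelCBS7-10 peak ran from 4492082 to 4493409 and held 3 summits, and the peaks of the other CTCF lists held 1 summit each. The overlap that joins the lists here is thus at the near end of the broad DelCBS7-10 peak, and its strongest signal lay elsewhere in the gene.

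Foxa1, a pioneer factor that opens chromatin (chr12:57540628-57548029), had 6 sites, of which 3 were called in all 3 lists. The first shared site inside the gene, at chr12:57542196-57542686, had fold enrichments of 5.11 in DelCBS7-10, 5.38 in InsCBS5-10 and 8.10 in wild type. Its percentiles were 46.2, 46.9 and 70.8. The next, also inside the gene at chr12:57544971-57545372, had 4.81, 6.88 and 6.68 in the same order, at percentiles 40.0, 70.3 and 59.6. RAD21 was called at both, with folds of 3.70 and 3.29 in InsCBS5-10 (percentiles 10.2 and 4.98) and of 2.51 and 3.97 in the wild-type RAD21 list (percentiles 3.75 and 45.3), so it was low in both lists at the first site and in InsCBS5-10 alone at the next. The remaining shared site lay 28.0 kb beyond the gene within Ttc6, with fold enrichments of 7.72 in DelCBS7-10, 6.52 in InsCBS5-10 and 9.13 in wild type. It had no RAD21 peak in InsCBS5-10. In the wild-type RAD21 list a peak of 3.57 overlapped it, with its summit at 57576697, beyond the site's end at 57576420. The other Foxa1 sites were each called in a single list, at 3.27 in DelCBS7-10, 3.43 in InsCBS5-10 and 4.18 in wild type.

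Foxa2, a pioneer factor of endoderm, notochord and floor plate (chr2:148042877-148046969), had the strongest sites of the 3 endoderm genes. The site 1.68 kb from the gene, at chr2:148048424-148048963, had fold enrichments of 6.05 in DelCBS7-10, 11.2 in InsCBS5-10 and 16.8 in wild type. It stood at percentile 97.8 in InsCBS5-10 and 99.3 in wild type, but at 63.5 in DelCBS7-10. The site 35.5 kb away, at chr2:148082051-148082856, had 12.2 in DelCBS7-10, 11.2 in InsCBS5-10 and 15.0 in wild type, at percentiles 99.2, 97.9 and 98.2. RAD21 was called at both sites, with folds of 8.14 and 5.13 in InsCBS5-10 and of 7.03 and 5.67 in the wild-type RAD21 list. The order of the Foxa2 sites by fold was the outer before the near one in DelCBS7-10 and the reverse in wild type. A weak Foxa2 site of 2.65 was called in wild type alone. With 1 library per genotype the spread of this order between replicates is unknown.

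Gata4, a zinc finger factor of heart and gut endoderm (chr14:63198914-63271712), had 5 sites, of which 3 were called in all 3 lists. The site 2.95 kb outside the lower-coordinate end, between Neil2 and Gata4, had fold enrichments of 6.02 in DelCBS7-10, 8.38 in InsCBS5-10 and 10.1 in wild type. A site inside the gene at chr14:63207156-63207476 had 5.06, 6.91 and 8.20 in the same order. Both had RAD21, at 5.94 and 4.88 in InsCBS5-10 and at 8.55 and 10.4 in the wild-type RAD21 list. A further site inside the gene, at chr14:63255665-63256389, had 8.56 in DelCBS7-10, 5.33 in InsCBS5-10 and 12 in wild type. Of the 3 shared sites it had the highest fold in DelCBS7-10 and wild type and the lowest in InsCBS5-10. It had no RAD21 peak in InsCBS5-10, and a fold of 3.33 in the wild-type RAD21 list, below that of both other shared sites. A broad peak at chr14:63245416-63246465 was called in DelCBS7-10 alone, at a fold of 4.92, and a weak one at 3.39 in wild type alone.

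Gata6, which acts beside Gata4 in endoderm and heart (chr18:11052510-11085636), had 2 sites. The site at its lower-coordinate end, at chr18:11052224-11052934, also touched the antisense gene Gata6os, and had fold enrichments of 6.32 in DelCBS7-10, 5.15 in InsCBS5-10 and 6.26 in wild type. Its strongest summits spanned 221 bp, more than at 97.4% of the sites called in all 3 lists. The peak held 2 summits in DelCBS7-10, 1 in InsCBS5-10 and 2 in wild type. The span can thus reflect which summit was the strongest. RAD21 was not called there in InsCBS5-10 and had a fold of 2.67, at percentile 7.26, in the wild-type RAD21 list. The second site lay 22.8 kb beyond the gene and was called in wild type alone, at 2.71.

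Shh had 19 sites over its wider window, of which 5 were called in all 3 lists, and those 5 included the highest fold of any member site in wild-type CTCF and in both RAD21 lists. Close to the gene (chr5:28456840-28467101), the site 5.47 kb from its lower-coordinate end, chr5:28450804-28451583, had fold enrichments of 8.95 in DelCBS7-10, 11.9 in InsCBS5-10 and 18.5 in wild type. On the other side, 2.86 kb from the gene, chr5:28469534-28470207 had 7.42, 5.58 and 10.1 in the same order. These 2 sites frame Shh. Their RAD21 folds were 13.7 and 11.2 in InsCBS5-10 and 10.6 and 9.94 in the wild-type RAD21 list, all at or above percentile 94.

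The other 3 shared sites lay at the far end of the Shh domain, in or beyond Lmbr1 (chr5:29229802-29378421). The site at chr5:29293075-29293611, 826 kb from Shh within Lmbr1, had fold enrichments of 9.02 in DelCBS7-10, 9.20 in InsCBS5-10 and 16.4 in wild type. A second site within Lmbr1, chr5:29335877-29336267, had 5.27, 5.64 and 6.99 in the same order. The site beyond Lmbr1, chr5:29388989-29389762, 922 kb from Shh, had 10.9 in DelCBS7-10, 9.06 in InsCBS5-10 and 16.0 in wild type. RAD21 was called at all 3 in both RAD21 lists, at 10.6, 6.89 and 11.1 in InsCBS5-10 and at 8.79, 9.57 and 10.5 in the wild-type RAD21 list. In wild type the Shh-flanking site at percentile 99.7 and the Lmbr1-side sites at 99.1 and 98.9 were among the strongest of the whole list. The position of the ZRS was not in the tables used here, so no distance to it is given.

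Between the 2 groups of strong sites, no CTCF site was called in all 3 lists over 823 kb. This gap, measured after the positions had been seen, was matched or exceeded by 367 of 27453 gaps between consecutive shared sites in the genome, or 1.34%, and the median gap was 34.4 kb. The gap held 10 weaker sites, 3 called in DelCBS7-10, 2 in InsCBS5-10 and 8 in wild type. None of the 10 was above percentile 12.5 in DelCBS7-10, 26.9 in InsCBS5-10 or 42.6 in wild type. The strongest of them in wild type, chr5:29274839-29275067 in Lmbr1, had 4.23 in InsCBS5-10 and 4.88 in wild type, was not called in DelCBS7-10, and had RAD21 at 6.53 in InsCBS5-10 and 7.16 in the wild-type RAD21 list. Outside the gap, 4 weaker sites in or beyond Lmbr1 had no call in InsCBS5-10, with folds of 3.14 and 3.55 in DelCBS7-10 and of 4.01, 4.46 and 3.15 in wild type. Rnf32, the gene before Lmbr1 (chr5:29192745-29227635), held no CTCF site in any list. Across the other genes, the longest gap reaching into a window ran from 95.4 kb beside Nkx2-5 up to 414 kb beside Gata6 and 430 kb beside Hand2. Gaps as long made up 23.1%, 3.85% and 3.67% of those in the genome, in the same order. The longest gap was taken at each gene, so these lengths are not like for like with the median gap.

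**Figure D2:**
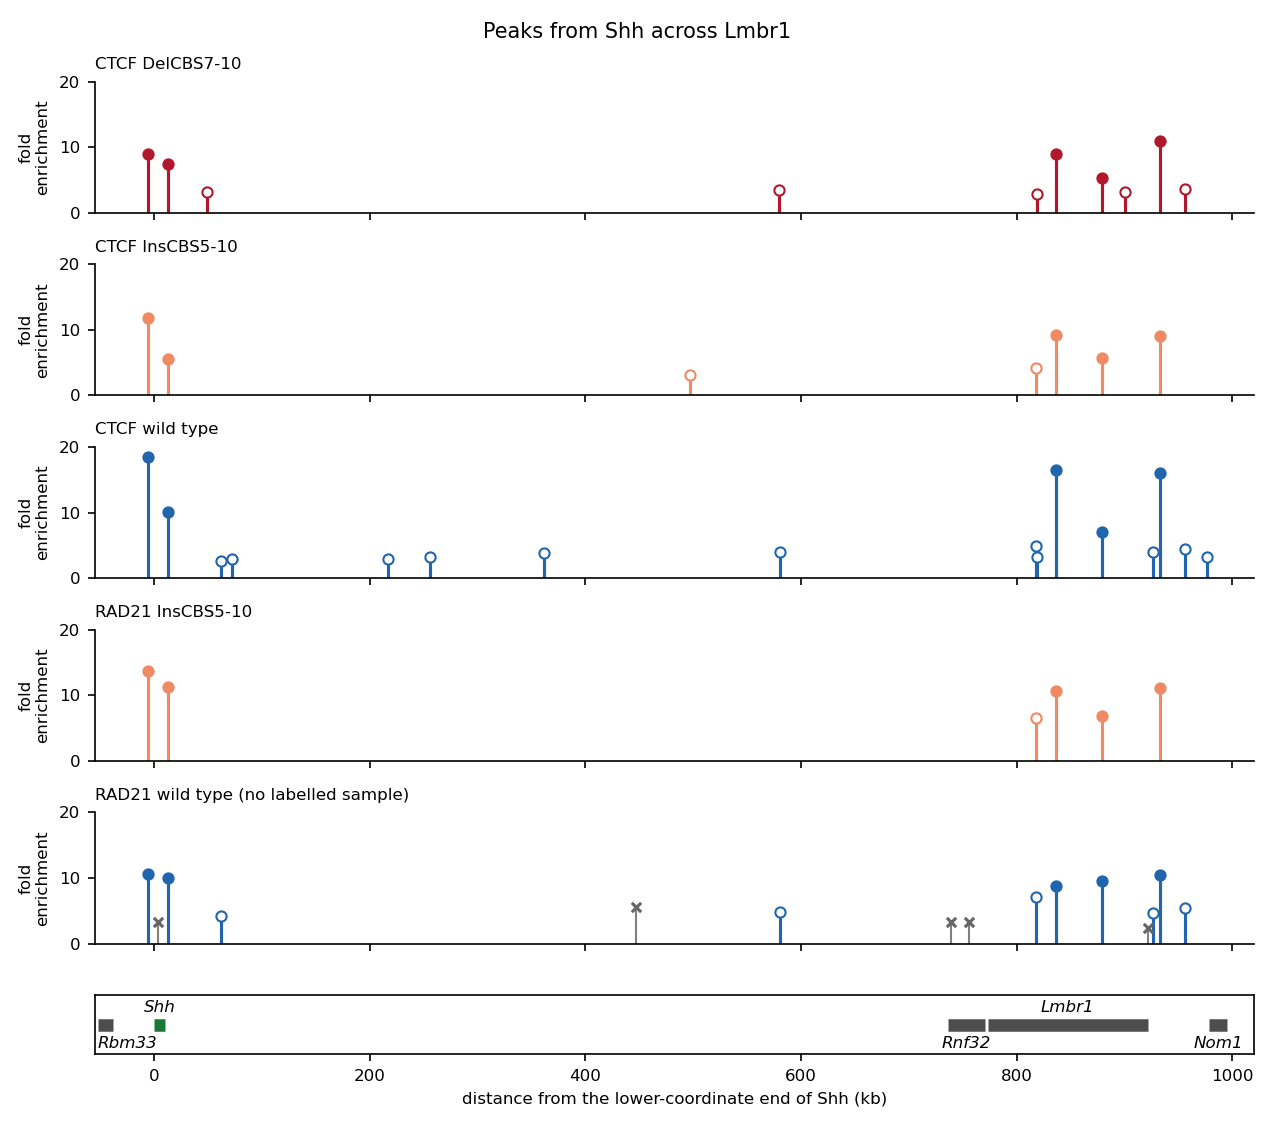
Fold enrichment of each peak (vertical axis) against distance from the lower-coordinate end of Shh in kb (horizontal axis), 1 panel a list and genes along the bottom, with filled circles for sites called in all 3 CTCF lists, open circles for other CTCF sites and crosses for RAD21 peaks without a CTCF site. Strong peaks flank Shh and stand in and beyond Lmbr1, and no CTCF peak in the 823 kb between the shared sites is above a fold of 4.88.

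Hand1, a basic helix-loop-helix factor of the heart tube and extraembryonic mesoderm (chr11:57828713-57832147), had 3 sites, 2 of them called in all 3 lists. The nearest, at chr11:57819897-57820371, had fold enrichments of 3.88 in DelCBS7-10, 4.70 in InsCBS5-10 and 9.78 in wild type, and stood at percentiles 21.9, 35.0 and 81.9. The site 36.8 kb beyond the gene, chr11:57868561-57869384, had 6.26, 5.86 and 8.57 in the same order. The outer site, chr11:57787925-57788279, was called at 5.58 in DelCBS7-10 and in neither of the other CTCF lists. RAD21 was called at the nearest site, at 5.83 in InsCBS5-10 and 5.63 in the wild-type RAD21 list. The site at 36.8 kb and the outer site had RAD21 in the wild-type RAD21 list alone, at 5.71 and 5.11.

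The Hand1 calls depended on the version of chromosome 11. The authors' reference held 2 versions of this chromosome, with the insertion and without HoxB, and Hand1 lies in sequence that both share. On the version without HoxB, the site called in DelCBS7-10 alone was called in every CTCF list, at 4.19 in DelCBS7-10, 4.12 in InsCBS5-10 and 6.77 in wild type. The nearest site had 7.12 in InsCBS5-10 and 10.0 in wild type there and no call in DelCBS7-10, which instead had peaks of 3.08 and 4.42 on either side, of which the peak of 4.42 lay within 5 kb of Hand1. The median fold on chromosome 11 was 5.28 in DelCBS7-10, 5.59 in InsCBS5-10 and 6.77 in wild type, against 5.30, 5.56 and 5.52 on the other chromosomes. Differences between genotypes at Hand1 are therefore values of these lists only.

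Hand2, needed for the right ventricle and limb (chr8:57320983-57324517), had 5 sites, 2 of them called in all 3 lists. The site 6.54 kb before the gene, chr8:57314184-57314681, lay in the antisense gene Hand2os1 and had fold enrichments of 6.69 in DelCBS7-10, 6.66 in InsCBS5-10 and 10.2 in wild type. RAD21 was called there in neither list, although the site stood at percentile 84.1 in wild-type CTCF. The site 29.3 kb beyond the gene, chr8:57353469-57353920 in Hdnr, had 3.85, 4.42 and 6.16 in the same order and a RAD21 fold of 5.31 in the wild-type RAD21 list alone. Hand2 was a gene with no RAD21 site in InsCBS5-10, as were Sox17 and Gata6. A site at 49.7 kb, just inside the window, had 6.41 in DelCBS7-10 and 5.26 in wild type and was not called in InsCBS5-10. The other sites were called in a single list, at 3.72 in DelCBS7-10 and 3.31 in wild type.

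Nkx2-5, a homeodomain factor of cardiac progenitors (chr17:26838664-26844988), had the most distant nearest CTCF peak of the 10 genes, at 34.5 kb in DelCBS7-10, 41.3 kb in InsCBS5-10 and 34.5 kb in wild type. Sites called in all 3 lists lay on both sides. The lower one, chr17:26794695-26795400, 43.7 kb away, had fold enrichments of 4.67 in DelCBS7-10, 4.47 in InsCBS5-10 and 8.16 in wild type. The higher one, chr17:26886075-26886643, 41.3 kb away, had 8.60 in DelCBS7-10, 6.77 in InsCBS5-10 and 14.0 in wild type, at percentiles 92.2, 68.5 and 96.9. RAD21 was called at both, at 6.0 and 8.26 in InsCBS5-10 and at 8.55 and 8.52 in the wild-type RAD21 list. A site at 34.5 kb had 4.89 in DelCBS7-10 and 3.38 in wild type and no CTCF call in InsCBS5-10. RAD21 was called there in InsCBS5-10 alone, at 3.15 and percentile 3.36. The last 2 CTCF sites were called in wild type alone, at 2.65 and 2.47, and the weaker had a fold of 4.64 in the wild-type RAD21 list.

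The higher Nkx2-5 site lay on the start of the gene Gm17382, and its sequence is shown because it carries the CTCF motif at the summit. The other promoter shown, of Gm30518, lies under the outer Foxa1 site and holds no match. Of the 52 promoter windows around the 10 genes, 3 overlapped a CTCF site, and the remaining one of these, of Gm33026 at the edge of a Hand1 site, held no match either. Windows run from 250 bases before to 50 bases after a RefSeq transcription start (GRCm38.p6), 5′ to 3′ on the minus strand, at chr17:26886197-26886496 for Gm17382 and at chr12:57575796-57576095 for Gm30518. Capitals mark matches to a 12-letter core of the CTCF motif, with CCA, AG and GGC as fixed letters and 2 free bases before and after AG, searched on both strands.
Gm17382: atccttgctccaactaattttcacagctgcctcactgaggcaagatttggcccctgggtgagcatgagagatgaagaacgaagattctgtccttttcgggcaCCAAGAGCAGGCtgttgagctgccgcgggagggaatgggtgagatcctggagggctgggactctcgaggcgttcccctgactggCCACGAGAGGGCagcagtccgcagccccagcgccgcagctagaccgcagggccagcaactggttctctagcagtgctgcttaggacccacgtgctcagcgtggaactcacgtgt
Gm30518: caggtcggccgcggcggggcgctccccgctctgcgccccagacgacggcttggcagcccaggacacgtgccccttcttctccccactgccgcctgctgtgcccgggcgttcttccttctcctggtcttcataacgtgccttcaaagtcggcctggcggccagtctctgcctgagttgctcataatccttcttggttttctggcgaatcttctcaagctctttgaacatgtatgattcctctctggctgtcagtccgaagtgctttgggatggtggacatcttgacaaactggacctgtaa
In the Gm17382 window, CCACGAGAGGGC at chr17:26886299-26886310 lay 3 bp from the wild-type CTCF summit at 26886296, and CCAAGAGCAGGC at chr17:26886383-26886394 lay 87 bp from it. The summits fell at window positions 222 in DelCBS7-10, 203 in InsCBS5-10 and 201 in wild type for CTCF, and at 218 in InsCBS5-10 and 192 in the wild-type list for RAD21. In the Gm30518 window the CTCF summits fell at positions 61, 91 and 47 in the same order of genotypes. The motif was present in 2.40% of 32101 RefSeq promoter windows of this length, and in 12.1% of the 2234 that overlap a wild-type CTCF peak, against 1.67% of the 29867 that do not. A looser form with the first A free matched 8.60% of all windows, 32.1% of those on a wild-type CTCF peak and 6.85% of the others, and of these sites again Gm17382 alone. RefSeq windows were at hand for Foxa1, Foxa2, Hand2 and Nkx2-5 themselves, 6 in all, and none overlapped a CTCF site or held the motif. A match is a description of letters and not a measured site.

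Tbx5, a T-box factor of the heart and forelimb (chr5:119796514-119885220), had 12 sites, the most of any gene with the 50 kb window, and 6 of them were called in all 3 lists. None was strong. The highest fold was 6.12 in DelCBS7-10, 5.75 in InsCBS5-10 and 6.33 in wild type, at percentiles 64.7, 52.9 and 56.8, the lowest maximum of the 10 genes in wild type except Gata6. The outermost shared site, chr5:119746995-119747457, had 4.63 in DelCBS7-10, 5.56 in InsCBS5-10 and 6.33 in wild type. Inside the gene, chr5:119815309-119815716 had 6.12, 5.05 and 4.86 in the same order, and chr5:119845166-119845428 had 4.28 in InsCBS5-10 and 6.32 in wild type and no call in DelCBS7-10. The sites called in a single list had 3.14 in DelCBS7-10 and 2.92, 2.87 and 3.04 in wild type. RAD21 was called at 1 of the 12 sites in InsCBS5-10, chr5:119777690-119778199 at 5.35, and at 4 in the wild-type RAD21 list, at folds up to 5.92.

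Over all 62 sites, 28 were called in all 3 CTCF lists, or 45.2% (exact Clopper-Pearson 95% interval 32.5 to 58.3%), against 49.0% of the sites of the genome. Called in DelCBS7-10 were 41 sites, or 66.1% against 64.9% genome-wide, in InsCBS5-10 32 sites, or 51.6% against 61.1%, and in wild type 53 sites, or 85.5% against 85.1%. Sites called in a single list numbered 7 in DelCBS7-10, or 11.3% against 7.53% genome-wide, 2 in InsCBS5-10, or 3.23% against 5.89%, and 17 in wild type, or 27.4% against 24.4%. The intervals cover counting error only, and sites of 1 gene share a region.

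Read pair by pair, 28 of the 41 DelCBS7-10 sites, or 68.3%, were also called in InsCBS5-10, against 77.8% genome-wide, and 28 of the 32 InsCBS5-10 sites, or 87.5%, in DelCBS7-10, against 82.6%. Wild type had calls at 34 of the 41 DelCBS7-10 sites, or 82.9% against 86.2%, and at 30 of the 32 InsCBS5-10 sites, or 93.8% against 88.0%. Of the 53 wild-type sites, 34 were called in DelCBS7-10, or 64.2% against 65.7%, and 30 in InsCBS5-10, or 56.6% against 63.2%. By role, sites called in all 3 lists were 7 of 11 at the endoderm factors and 4 of 7 at the GATA genes. They were 5 of 19 at Shh and 12 of 25 at the heart genes, against 49.0% genome-wide. The Shh count covers its wider window and is not like for like with the other roles. Within 50 kb of Shh, 2 of 3 sites were shared, and from there to Rnf32, 0 of 7. The remaining shared Shh sites lay in or beyond Lmbr1.

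**Figure D3:**
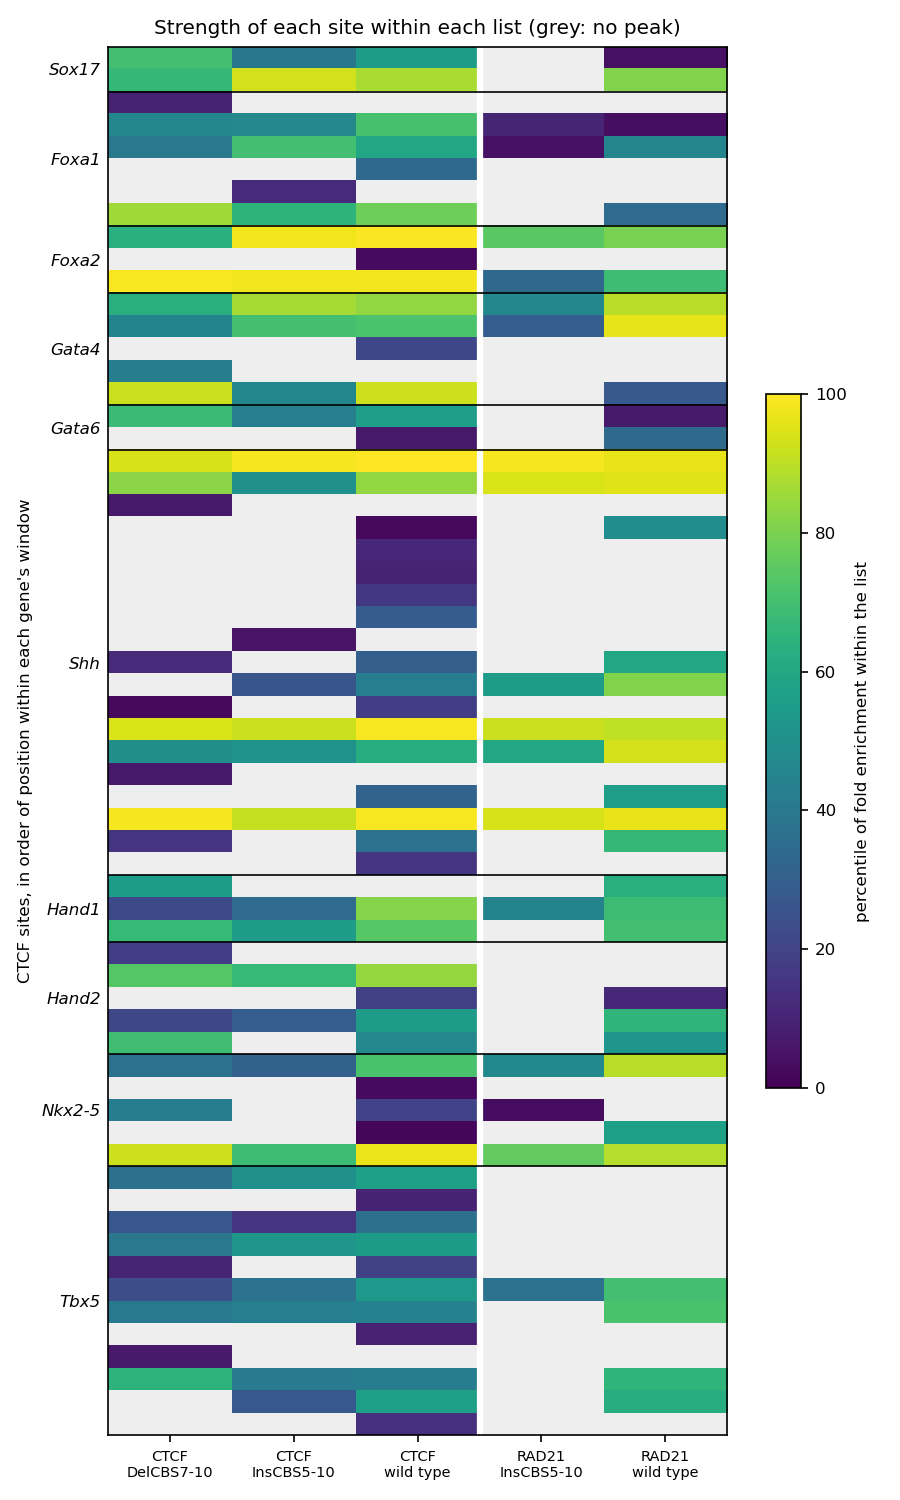
Percentile of fold enrichment within the list (colour) for each of the 62 CTCF sites, grouped by gene, in columns for CTCF in DelCBS7-10, InsCBS5-10 and wild type and for RAD21 in InsCBS5-10 and the wild-type RAD21 list, with grey cells where no peak was called. Of the rows, 28 are coloured in all 3 CTCF columns, and the 17 coloured in wild type alone among these columns are all at or below percentile 34.1.

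Sharing went with strength. In wild type the sites called in all 3 lists had a median percentile of 72.9, against 70.2 for such sites in the genome, and the 17 called in wild type alone had a median of 11.1 and a maximum of 34.1, against a genome median of 17.7. In DelCBS7-10 the 7 sites called there alone had a median percentile of 9.43, and in InsCBS5-10 the 2 such sites stood at 5.47 and 12.4. The exceptions among sites of DelCBS7-10 alone were the Hand1 site at percentile 55.2 and the broad Gata4 peak at 42.5. Of the 18 member sites in the upper 4 of 10 wild-type strength classes, 18 were called in all 3 lists, against 94.0% genome-wide. Of the 17 in the middle 3 classes, 10 were, against 55.7%, and of the 18 in the lowest 3 classes 0 were, against 10.7%.

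**Figure D4:**
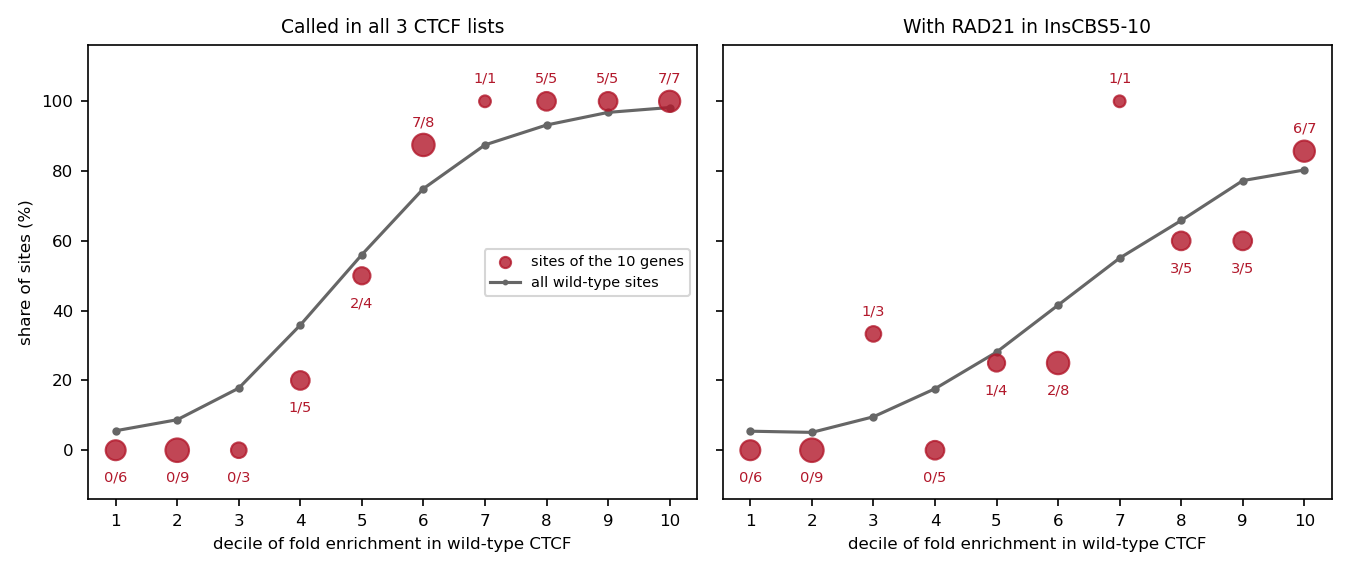
Share of sites in percent (vertical axis) called in all 3 CTCF lists (left) or with a RAD21 peak in InsCBS5-10 (right), by decile of wild-type CTCF fold enrichment (horizontal axis, 10 strongest), red points for the sites of the 10 genes with their counts and point size by number of sites, grey line for all wild-type sites. Member sites move with the genome's curve, with 18 of 18 in deciles 7 to 10 shared by all 3 lists and 13 of these 18 with RAD21.

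RAD21 followed the same order of strength. In InsCBS5-10, 16 of the 32 CTCF sites had RAD21, or 50.0% (exact 95% interval 31.9 to 68.1%), against 48.4% genome-wide. In wild type 34 of 53 had it, or 64.2% (49.8 to 76.9%), against 68.7%, and the wild-type RAD21 list is the longer one by peak number. Among the 28 sites shared by all CTCF lists, 15 had RAD21 in InsCBS5-10, or 53.6% against 56.7%, and 24 in the wild-type RAD21 list, or 85.7% against 88.7%. Among the 34 other sites, 2 had RAD21 in InsCBS5-10, or 5.88% against 10.8%, and 11 in the wild-type RAD21 list, or 32.4% against 35.0%. By wild-type CTCF strength, RAD21 in InsCBS5-10 marked 13 of 18 sites in the upper 4 classes, 3 of 17 in the middle and 1 of 18 in the lowest, against 69.6%, 29.1% and 6.73% genome-wide. The wild-type RAD21 list marked 17 of 18, 13 of 17 and 4 of 18 in the same classes, against 96.6%, 72.8% and 27.3%.

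The count of shared sites with RAD21 was also read by role. In InsCBS5-10, where 56.7% of shared sites of the genome had RAD21, the counts were 4 of 7 at the endoderm factors and 2 of 4 at the GATA genes. They were 5 of 5 at Shh and 4 of 12 at the heart genes. In the wild-type RAD21 list, against 88.7% genome-wide, the counts were 7 of 7, 4 of 4, 5 of 5 and 8 of 12 in the same order. These include weak calls, at percentile 4.57 inside Sox17, 3.75 at the first site inside Foxa1 and 7.26 at Gata6. All shared sites of Shh had RAD21 in both lists. The Hand2 site in Hand2os1 had RAD21 in neither. Nor did the shared Tbx5 sites at chr5:119746995-119747457, chr5:119758989-119759235 and chr5:119762112-119762477. The counts are small, and differences between the roles were not tested.

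RAD21 peaks that met no CTCF site of any of the 3 CTCF lists numbered 0 in InsCBS5-10, beside 17 CTCF sites with RAD21. Genome-wide, 4.53% of the InsCBS5-10 RAD21 peaks met none. The RAD21 peak of InsCBS5-10 at the Nkx2-5 site at 34.5 kb, however, met CTCF peaks of the other lists only. The wild-type RAD21 list had 19 peaks without a CTCF site at 7 of the genes, beside 35 CTCF sites with RAD21. Genome-wide, 43.2% of that list lacked a CTCF site. Their fold ranged between 2.44 and 5.57 with a median of 3.34. The highest lay at chr5:28903829-28904469 in Gm35688, inside the 823 kb gap of the Shh domain. Another, at chr8:57328506-57328734, lay within 5 kb of Hand2, which brought the genes with a near RAD21 peak to 8 of 10 in the wild-type RAD21 list, against 75.0% of protein-coding genes, beside 4 of 10 in InsCBS5-10, against 37.7%.

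At the 28 shared sites the summits of the 3 CTCF lists spanned a median of 32.5 bp, against 33.0 bp in the genome. The tightest was the Hand2 site in Hand2os1, with 9 bp, and the widest was the Sox17 site described above. The median number of peaks per window was at or below that of all genes. Within 50 kb, the median gene of the 10 had 3 CTCF peaks in DelCBS7-10, 2 in InsCBS5-10 and 3.5 in wild type, against 3, 3 and 4 over all protein-coding genes. For RAD21 the median was 1.5 peaks in InsCBS5-10 and 3.5 in the wild-type RAD21 list, against 2 and 5.

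A further 60 genes of the same pathways were read in the same way within 5 kb. Of 20 endoderm genes, 11 had a CTCF peak in DelCBS7-10, 9 in InsCBS5-10 and 11 in wild type, and 6 had it in all 3 lists. Calls differed between the lists at 9 of them, Foxa3, Sox18, Pdx1 and Otx2 among them, where 15.4% of protein-coding genes differed. Of 26 heart genes, 16, 16 and 19 had a peak in the same order and 14 had it in all 3 lists, and the 6 that differed were Tbx2, Bmp4, Hcn4, Nppa, Irx4 and Hey2. Of 14 genes of the Shh pathway, 11, 10 and 12 had a peak and 9 had it in all 3 lists, and calls differed at the receptor Ptch1 and the effector Gli3, among others. Over all protein-coding genes, 57.1% had a CTCF peak within 5 kb in DelCBS7-10, 54.6% in InsCBS5-10 and 63.3% in wild type. The share with a peak in all 3 lists was 51.0%. Calls differed at 18 of the 60 genes, beside the 15.4% of protein-coding genes given above. These counts are descriptions of the lists and were not tested.

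Some sites lay close to the window's edge. Just inside it were the Hand2 site at 49.7 kb and the Tbx5 site at 49.3 kb. Just outside lay a site 50.2 kb from Hand1 with fold enrichments of 8.60 in DelCBS7-10, 10.7 in InsCBS5-10 and 15.3 in wild type, stronger than any site inside its window. Another, 50.8 kb from Nkx2-5, had 8.25, 5.94 and 11 in the same order.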

How the data were processed

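Peak lists of CTCF and RAD21 ChIPmentation were used, 1 library per group. Per the submitters' processing notes, cutadapt 4.1, MACS2 2.2.7.1 and build mm10 were used, and peak names show an edited mm10 with 2 versions of chromosome 11. The aligner, the control, the caller's options and any pooling behind the RAD21 list without a sample were not given in the sources used here. The deposited score of a peak is 10 times its −log10 q. The deposited ratio is fold enrichment over local background. The deposited −log10 q values began at 1.30 in each list, a q-value of 0.05. The deposited summit offset gave summit positions.

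Summits sharing an interval were merged to the strongest, and of both chromosome 11 versions the one with the insertion was read, which affects Hand1. Peaks overlapping by 1 bp or more formed a site. Gene bodies came from a GRCm38.p6 RefSeq table without strand, and protein-coding genes beyond Hoxb13 on chromosome 11 were not used. Positions are 1-based. Percentiles rank fold enrichment within a list. Intervals of shares are exact Clopper-Pearson 95% intervals. The computation used Python 3.11.15, pandas 2.3.3, numpy 2.4.6 and scipy 1.17.1, and was tested on simulated peaks. The genes, lists and measures were chosen with earlier results of these data known. Genes were named as the 10 members, with every site of all 3 lists given by value, range or count. With no genome at hand, motif letters were searched in RefSeq promoter windows only. No blacklist was applied. Alternatives varied the q-value, overlap, window, list length, chromosome 11 version, ranking and motif.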

Additional observations from a re-analysis of the deposited data

How the results depend on the processing

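Of 75 values recomputed under other settings, 70 stayed within 1.5 times the main value, or for median percentiles within the interval of the main value. Some of these could not move: cutting to equal length leaves the shortest lists unchanged, and the Shh window does not alter counts within 5 kb. The intervals of the median percentiles were wide, for example 36.7 to 66.5 for CTCF in DelCBS7-10 and 33.7 to 75.8 for RAD21 in InsCBS5-10. Staying within them is a weak criterion. With a −log10 q of 5 or more, the 62 sites became 37 and the wild-type sites 34. With lists cut to equal length, the wild-type sites were 34 and the CTCF sites with RAD21 in the wild-type RAD21 list 16. With a 100 kb window, the InsCBS5-10 sites were 51. The 62 sites became 93 there, at the limit of 1.5 times and counted as within it. The cause was not tested, except that stricter or shorter lists and wider windows hold fewer or more peaks by construction. The count of sites in all 3 lists was 24 at the stricter q and 28 with equal lengths. The other version of chromosome 11 gave 28 such sites, and leaving out Hand1 gave 26. That version was planned for the site counts of the windows and of each CTCF list. Its use for this count, and leaving out Hand1, were chosen after seeing the data. A looser motif, with the first A free and added as an alternative likewise, matched the same window. No paired analysis was possible because each group has 1 library. Read depth is unknown, so weak sites missing from a list cannot be told apart from sites not bound.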
